A study of Mus musculus with 98 samples.

Results

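Sorted EPI-T cells were set against undifferentiated TBLC, mouse totipotent blastomere-like cells kept in a culture state that shares transcripts with the cleavage embryo. The comparison used 4 of the 98 samples of the series, 2 EPI-T and 2 TBLC libraries, chosen by the column names of the one count table that holds both. EPI-T cells were TBLC moved to SLM medium for 3 days and then sorted as CD140-, and TBLC were grown in 2MYCP medium and not sorted. The CD140+ cells of the same move, labelled PrE-T, stood in the same table with 2 libraries and entered the same fit.

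Several limits came with this design. Medium, time and sort differed together between EPI-T and TBLC, so they cannot be told apart. Another group of the series, moved to SLM for 8 h, is labelled TBLC_PlaB-, which reads as a move that also left out the compound PlaB. PlaB may therefore differ between TBLC and EPI-T as well, and cannot be told apart from the medium. Total RNA was extracted with TRIzol, and libraries came from either of 2 total RNA kits and were read on either of 2 instruments. The labels do not assign a kit or an instrument to single libraries. The labels do not say that replicates came from separate cultures, so the p-values may rest on technical spread alone. In bulk RNA, fewer cells of a type and less RNA per cell cannot be told apart.

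As background, pluripotent cells of the early embryo rely on the transcription factors Nanog, Pou5f1 and Sox2, and pass through a naive, a formative and a primed state, the formative one marked by de novo DNA methyltransferases and factors such as Pou3f1. Their sister lineage, the primitive endoderm, is set up by Gata6, Gata4, Sox17 and Sox7 under FGF signalling and lays down basement membrane laminins and collagen IV. Pluripotent mouse cells are also known for fast cycles with a short G1 phase and for high glycolysis.

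Library totals were 24959676 and 21357493 counts in EPI-T, against 22563522 and 20302848 in TBLC. Genes with at least 1 count numbered 15319 and 15212 in EPI-T, against 16130 and 15957 in TBLC. The share of counts on mitochondrial-encoded genes was 1.40% and 1.27% in EPI-T, against 2.57% and 2.42% in TBLC, so the groups did not overlap in this share. Log2 CPM of the 2 EPI-T libraries correlated across genes at r = 0.99, and so did those of the 2 TBLC libraries. All levels below are CPM, counts relative to library size, scaled by TMM on the genes left by the low-count filter, unless another scale is named, and they are not corrected for gene length. Changes are log2 EPI-T over TBLC ± standard error of the edgeR fit, and adjusted p-values are Benjamini-Hochberg values over all 14373 tested genes, with 0.05 as the threshold.

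Pdgfra, which encodes CD140a, was the surface antigen of the sort and serves as its check only. It stood at 3.90 and 5.37 CPM in the EPI-T libraries, against 103 and 98.7 CPM in the TBLC libraries, and at 374 and 371 CPM in PrE-T. The pluripotency factors Nanog, Pou5f1 and Sox2 were expressed in both EPI-T libraries, but also in TBLC, so their expression alone does not bear out the label. The primitive endoderm factors Gata4, Gata6 and Sox17 stood below their TBLC levels of this table in both EPI-T libraries. Since the sort left out CD140+ cells, these falls are not a check independent of the sort.

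Most of the transcriptome differed between EPI-T and TBLC. Of 14373 tested genes, 9327 (64.9%) passed the threshold, 4332 (30.1%) higher in EPI-T and 4995 (34.8%) lower. These shares are the background for every list count below. The falls were larger than the rises: 1046 genes were lower by at least 8-fold and 126 higher by at least 8-fold, and at 2-fold the counts were 2841 lower and 1330 higher, together 29% of the tested genes. The median change of all tested genes was -0.07. Scaling by library totals moved that median by -0.21 and cut the genes higher by at least 2-fold to 883.

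**Figure D1:**
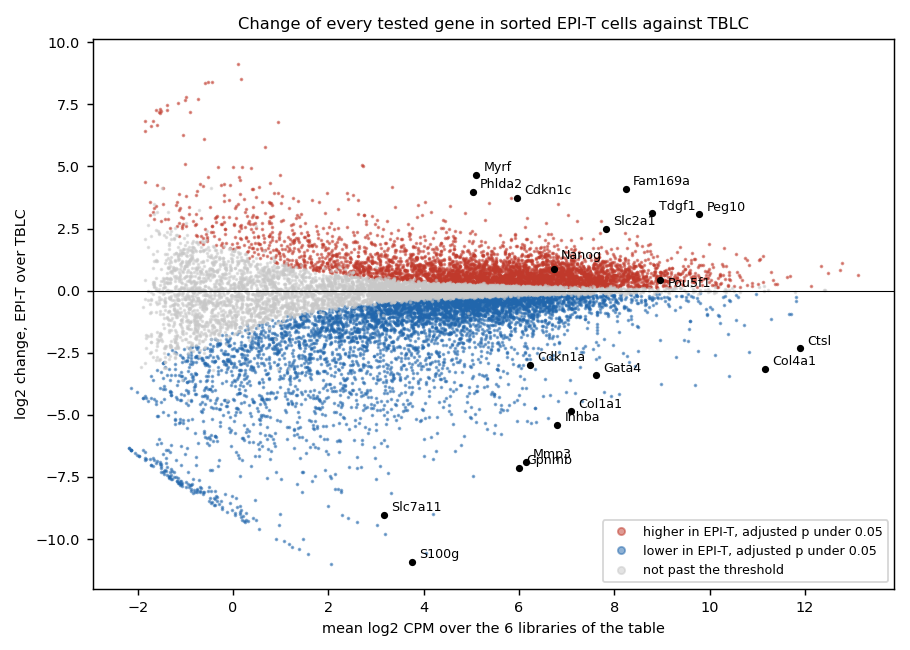
Each point is 1 of the 14373 tested genes, with its mean log2 CPM over the 6 libraries of the table on the horizontal axis and its log2 change of EPI-T over TBLC on the vertical axis. Red points passed the threshold as higher, blue points as lower and grey points did not pass it, with 1046 genes lower and 126 higher by at least 8-fold.

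The 12 largest rises were taken among genes averaging a log2 CPM of 3 or more. Myrf, a transcription factor of myelin-forming cells, stood at 88.9 and 85.3 CPM in EPI-T, against 4.22 and 2.53 CPM in TBLC, a change of 4.67 ± 0.17 (adjusted p = 2.1e-13). Cdkn1c, the imprinted cyclin-dependent kinase inhibitor p57, stood at 161 and 158 CPM in EPI-T, against 12.4 and 11.7 CPM in TBLC (change 3.73 ± 0.09, adjusted p = 1.6e-15). Phlda2, an imprinted gene that restrains placental growth, changed by 3.98 ± 0.21. Both EPI-T libraries lay above both TBLC libraries in all 3 genes.

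Fam169a reached 786 and 757 CPM in EPI-T, against 47.6 and 42.8 CPM in TBLC (change 4.09 ± 0.07), and its groups lay well apart. Ndufa4l2 (4.18 ± 0.23), Bnip3 (3.47 ± 0.09), Ankrd37 (3.43 ± 0.17) and Egln3 (3.41 ± 0.14) are known to be induced by hypoxia, and Slc16a3 (3.71 ± 0.10) exports lactate. On library totals, Ndufa4l2 was lower in both EPI-T libraries than the 26.3 and 28.4 CPM of TBLC at 0 h in another table. Grhl2, a transcription factor of epithelia, changed by 3.59 ± 0.16, and Elavl3, an RNA-binding protein of neurons, by 3.39 ± 0.21. H2ac23, a histone H2A gene, stood at 24.8 and 163 CPM in EPI-T, against 7.12 and 9.03 CPM in TBLC: its EPI-T replicates disagreed, its standard error was 0.54, and reads shared with other histone copies make its level uncertain.

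The 12 largest falls were also taken among genes averaging a log2 CPM of 3 or more, an average that runs over the 6 libraries of the table, PrE-T included. S100g, Gpat3, Vnn1, Stra6 and Egflam had 0 counts in both EPI-T libraries and were at least 39.5-fold lower than in TBLC, and S100g and Gpat3 at least 151-fold and 119-fold lower, with a floor of 3 counts over the group. Their levels in PrE-T were above those in TBLC: Egflam stood at 51.9 and 50.8 CPM in PrE-T, against 2.93 and 2.27 CPM in TBLC. With 0 counts in EPI-T, these 5 genes reached the required average mainly through PrE-T. The choice thus favoured genes high in PrE-T, and their higher level there is no separate result. S100g was high in TBLC of this table alone, at 9.22 and 13.6 CPM on library totals, against 0.99 CPM or less in the 6 TBLC libraries of other tables described further on. The 5 genes encode a calcium-binding protein, a glycerol-3-phosphate acyltransferase, a pantetheinase, a retinol receptor and a matrix protein. Slc7a11, the cystine importer, had 2 and 0 counts in EPI-T, against 687 and 567 in TBLC, a ratio of TBLC to EPI-T of 585 with an exact 95% interval of 162 to 4833 that covers counting error only. The chemokine Cxcl12 and the growth factor Igf1 also had 2 counts in EPI-T, with ratios of 314 (86.7 to 2600) and 180 (49.6 to 1495).

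Mmp13 and Mmp3, secreted metalloproteases, fell by 7.47 and 6.89 on the log2 scale, and Gpnmb, a transmembrane glycoprotein, fell by 7.13. Mmp3 stood at 1.52 and 1.58 CPM in EPI-T, against 181 and 187 CPM in TBLC. Snx20, a sorting nexin, fell by 7.05 on the log2 scale and stood under 0.2 CPM in both EPI-T libraries.

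Of the 10 pluripotency core genes, 9 rose and 1 fell in EPI-T, with a median change of 0.98, beside a median of -0.07 over all tested genes. Nanog stood at 205 and 184 CPM in EPI-T, against 110 and 106 CPM in TBLC (change 0.85 ± 0.07, adjusted p = 7.5e-09). Sox2 stood at 168 and 167 CPM in EPI-T, against 117 and 103 CPM in TBLC (0.60 ± 0.07, adjusted p = 1.4e-06). Pou5f1 changed least of the 3, with 590 and 597 CPM in EPI-T, against 431 and 457 CPM in TBLC (0.42 ± 0.05, adjusted p = 1.3e-06). The groups did not overlap in any of the 3.

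Tdgf1, the Nodal co-receptor Cripto, changed most of the core list. It stood at 1149 and 1099 CPM in EPI-T, against 130 and 131 CPM in TBLC, a change of 3.11 ± 0.06 (adjusted p = 4.5e-17). Utf1, a chromatin-associated factor of pluripotent cells, changed by 1.92 ± 0.09, Dppa4 by 1.44 ± 0.08, and Lin28a, which blocks maturation of let-7 microRNAs, by 1.28 ± 0.06. The fall of Sall4 was small, -0.19 ± 0.06, and was not called without EPI-T replicate 1 or without TBLC replicate 2.

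The naive and formative genes split. Of 21 naive genes, 13 rose and 5 fell, with a median of 0.46. On library totals, 3 of the 13 lay above every TBLC library analysed here, and 3 lay below all TBLC libraries of other tables. All 5 falls lay below every TBLC library. Gbx2, a homeobox gene downstream of LIF, stood at 279 and 254 CPM in EPI-T, against 68.0 and 59.9 CPM in TBLC (2.06 ± 0.08), and Socs3, a feedback inhibitor of LIF signalling, changed by 1.13 ± 0.08. Tbx3 and Tfcp2l1, transcription factors of the naive network, went the other way: Tbx3 stood at 32.5 and 31.4 CPM in EPI-T, against 174 and 178 CPM in TBLC (-2.46 ± 0.07), and Tfcp2l1 changed by -0.89 ± 0.06. The falls also took in Pecam1, Fbxo15 and Klf4, all lower in EPI-T than in every TBLC library of the series analysed here.

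Of 17 formative genes, 10 rose and 2 fell, with a median of 0.66. Tcf15, a helix-loop-helix factor, stood at 238 and 257 CPM in EPI-T, against 32.1 and 39.3 CPM in TBLC (2.80 ± 0.09, adjusted p = 7.4e-14). Dnmt3b and Dnmt3l, the de novo methyltransferase and its cofactor, stood at 315 and 334 CPM and at 215 and 219 CPM in EPI-T, against 87.7 and 90.4 CPM and 64.2 and 63.2 CPM in TBLC. Lef1, a Wnt effector, changed by 2.32 ± 0.18, and Pou3f1, an octamer factor of the formative state, by 3.58 ± 0.40 at 6.52 and 9.41 CPM in EPI-T, against 0.74 and 0.57 CPM in TBLC. Otx2 and Fgf5, usual markers of a later formative or primed state, did not pass: Otx2 stood at 7.30 and 7.25 CPM in EPI-T, against 6.53 and 5.37 CPM in TBLC, and Fgf5 had 8 and 0 counts in EPI-T, against 25 and 0 in TBLC.

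**Figure D2:**
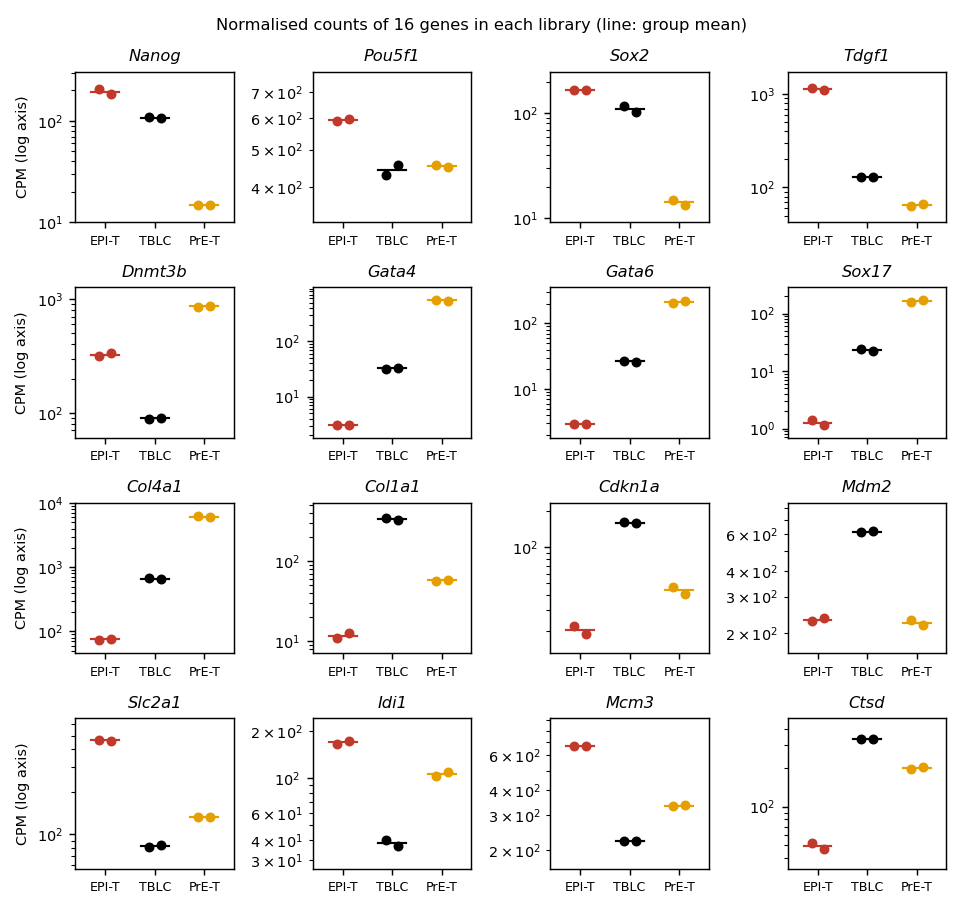
Normalised counts (CPM, log axes) of 16 genes in each library, with EPI-T left, then TBLC and PrE-T, each point 1 library and each line the group mean. EPI-T lies above TBLC for Nanog, Tdgf1, Dnmt3b, Slc2a1, Idi1 and Mcm3 and below it for Gata4, Gata6, Sox17, Col4a1, Col1a1, Cdkn1a, Mdm2 and Ctsd, and the replicate points lie close together in all panels.

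Most primitive endoderm genes were lower in EPI-T than in TBLC, where they stood at measurable levels. Of 22 genes on the list, Pdgfra of the sort among them, 20 fell, 1 rose and 1 did not pass, with a median of -2.91. Gata4 stood at 3.03 and 3.07 CPM in EPI-T, against 32.2 and 33.0 CPM in TBLC (-3.41 ± 0.09, adjusted p = 8.2e-15). Gata6 stood at 2.99 and 2.93 CPM in EPI-T, against 26.8 and 26.1 CPM in TBLC (-3.16 ± 0.11). Sox17 stood at 1.39 and 1.15 CPM in EPI-T, against 24.4 and 22.5 CPM in TBLC (-4.19 ± 0.14), and Sox7 changed by -1.26 ± 0.15. These 4 transcription factors head the endoderm programme, and no EPI-T library reached a TBLC library of this table in any of them. On library totals, Gata4 and Gata6 also lay below all TBLC libraries of other tables, and Sox17 and Sox7 did not.

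The same list holds basement membrane genes. Col4a1 and Col4a2, the chains of collagen IV, stood at 73.8 and 76.4 CPM and at 31.5 and 35.1 CPM in EPI-T, against 674 and 655 CPM and 362 and 350 CPM in TBLC. Lama1, a laminin chain, changed by -2.46 ± 0.05. Lamc1, the laminin gamma chain, did not pass, with 422 and 454 CPM in EPI-T, against 437 and 419 CPM in TBLC, and Nid2, a nidogen, was the single rise (0.16 ± 0.05), lost without EPI-T replicate 2, without TBLC replicate 2 or with library totals. The list summed to 1101 to 1125 CPM in EPI-T, against 3833 to 3959 CPM in TBLC, on the scale of library totals.

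Fibroblast and mesenchymal matrix genes fell without exception. All 22 genes on that list were lower in EPI-T, with a median of -4.59. Col1a1, the main fibrillar collagen chain, stood at 10.9 and 12.5 CPM in EPI-T, against 346 and 329 CPM in TBLC (-4.85 ± 0.08, adjusted p = 2.2e-17). Lox, a collagen cross-linking enzyme, stood at 2.34 and 2.74 CPM in EPI-T, against 138 and 138 CPM in TBLC, and Bgn, a proteoglycan, changed by -5.24 ± 0.11. Lum, another proteoglycan, had 0 counts in EPI-T and was at least 46.9-fold lower. The summed level was 112 to 114 CPM in EPI-T, against 2336 to 2427 CPM in TBLC, on library totals, and Lum was the only one of the 22 at 0 in both EPI-T libraries. The part of such cells, and of endoderm cells in TBLC, in the other falls was not tested.

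Of 16 trophectoderm genes tested, 7 fell and 2 rose: Krt8, an epithelial keratin, stood at 19.2 and 14.5 CPM in EPI-T, against 91.8 and 93.7 CPM in TBLC (-2.45 ± 0.09), and Gata3 and Tfap2a changed by -4.13 ± 0.61 and -2.93 ± 0.33. The rises were Hand1 and Dlx3, each with 1 to 3 counts over both TBLC libraries and fewer than 30 in EPI-T, and neither was called without either TBLC replicate. Of 8 primitive streak genes, 6 fell, among them Snai1 (-3.03 ± 0.29), Cdx1 (-3.27 ± 0.45) and Eomes (-1.33 ± 0.16), and 1 rose, Mesp1, which had 24 counts in EPI-T and 1 in TBLC and was lost whenever 1 EPI-T or TBLC library was left out.

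Of 11 neuroectoderm genes, 7 fell and 2 rose. Sox11, a neural and progenitor factor, changed by 1.14 ± 0.12 and the intermediate filament gene Nes by 0.47 ± 0.09, while Tubb3, a neuronal tubulin, changed by -1.48 ± 0.17 and Ncam1, a neural adhesion molecule, by -1.35 ± 0.13. Among 21 epithelial junction genes, 11 rose and 5 fell. Epcam, an epithelial adhesion molecule, stood at 228 and 233 CPM in EPI-T, against 54.6 and 56.2 CPM in TBLC (2.06 ± 0.07). Cdh2 and Vim, known from mesenchymal cells, changed by -3.55 ± 0.16 and -2.01 ± 0.05.

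**Figure D3:**
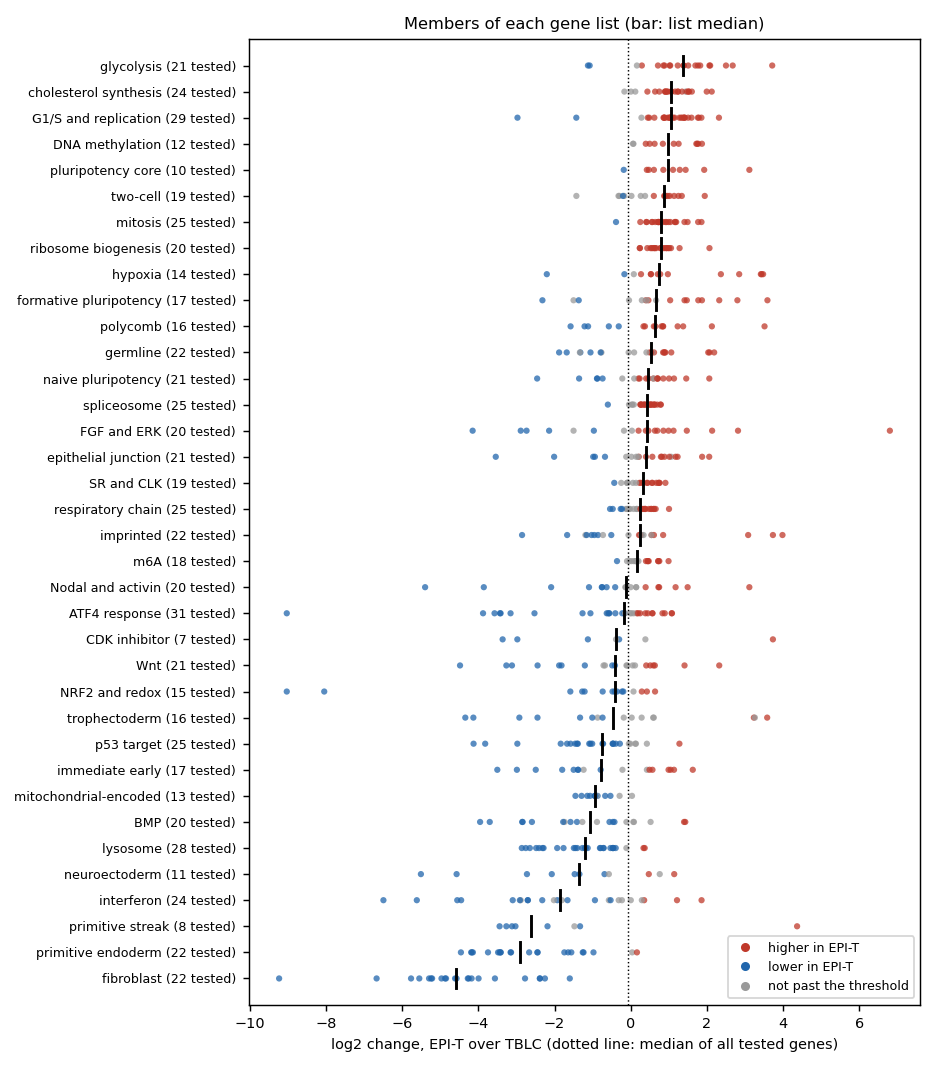
Log2 change of EPI-T over TBLC (horizontal axis) of each tested member of 36 gene lists (rows, with the number tested), red for higher, blue for lower and grey for not past the threshold. The black bar is the list median and the dotted line the median of all tested genes at -0.07. Glycolysis stands at the top with a median of 1.38 and the fibroblast list at the bottom with -4.59.

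For FGF and ERK, 12 of 20 rose and 5 fell (median 0.43). Spry4, a feedback inhibitor of FGF signalling, stood at 438 and 420 CPM in EPI-T, against 59.1 and 63.2 CPM in TBLC (2.81 ± 0.06, adjusted p = 4.6e-16), and Etv4, a transcription factor downstream of ERK, changed by 1.47 ± 0.07. Fgf15 had 232 counts in EPI-T and 2 in TBLC, a ratio of 124 (exact 95% interval 34.1 to 1033). The receptor Fgfr2 changed by -2.89 ± 0.22, and Dusp4, an ERK phosphatase, by -2.74 ± 0.09, so feedback genes of the same pathway went both ways.

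For Nodal and activin signalling, 6 of 20 tested genes rose and 8 fell (median -0.12), close to the 30.1% higher and 34.8% lower over all tested genes. Inhba, which encodes the activin A subunit, stood at 6.72 and 7.77 CPM in EPI-T, against 302 and 308 CPM in TBLC (-5.40 ± 0.09), and Fst, the activin-binding inhibitor, stood at 4.55 and 4.65 CPM in EPI-T, against 63.1 and 70.6 CPM in TBLC. Skil, a SMAD-binding inhibitor, changed by 1.49 ± 0.05. Nodal itself fell by 0.76 on the log2 scale, at 12.8 and 13.2 CPM in EPI-T, against 23.3 and 20.8 CPM in TBLC.

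For BMP signalling, 2 of 20 rose and 11 fell (median -1.08). Both rises were large: the ligand Bmp4 stood at 188 and 180 CPM in EPI-T, against 70.5 and 69.3 CPM in TBLC (1.40 ± 0.07), and Id1, an inhibitor of helix-loop-helix factors, stood at 77.0 and 74.3 CPM in EPI-T, against 29.1 and 27.0 CPM in TBLC. Its relative Id3 changed by -2.84 ± 0.14 and the receptor Acvr1 by -1.58 ± 0.15. For Wnt signalling, 6 of 21 rose and 9 fell (median -0.42), beside 30.1% higher and 34.8% lower over all tested genes. The inhibitor Dkk1 changed by -4.48 ± 0.34 and the effectors Tcf7l1 and Tcf7l2 by 1.41 ± 0.12 and -1.82 ± 0.18.

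Of 17 immediate early genes, 6 rose and 8 fell, beside 30.1% higher and 34.8% lower over all tested genes. Ier2 changed by 1.13 ± 0.06, while Ccn1, a matricellular protein, and Klf6, a zinc finger factor, changed by -2.50 ± 0.10 and -1.80 ± 0.09.

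Of 12 DNA methylation genes, 10 rose and 2 did not pass, with a median of 0.98 (1 fell with library totals). Hells, a chromatin remodeller needed for DNA methylation, stood at 1253 and 1259 CPM in EPI-T, against 366 and 385 CPM in TBLC (1.74 ± 0.05, adjusted p = 4.5e-14). Uhrf1, which recruits the maintenance methyltransferase, stood at 429 and 440 CPM in EPI-T, against 134 and 130 CPM in TBLC. Tet1, which oxidises methylcytosine, rose too (1.25 ± 0.05), in the same direction as Hells and Uhrf1.

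Of 16 polycomb genes, 11 rose and 5 fell (median 0.62), the falls a share close to the 34.8% lower over all tested genes. Ezh2, the methyltransferase of PRC2, stood at 337 and 346 CPM in EPI-T, against 133 and 130 CPM in TBLC (1.37 ± 0.05). Kdm2b, which brings PRC1 to CpG islands, changed by 2.13 ± 0.06, and the PRC2 partners Jarid2 and Mtf2 by 1.23 ± 0.05 and 0.84 ± 0.05. The 5 falls were Bmi1, Pcgf1 and Ring1 of PRC1 and Aebp2 and Ezh1 of PRC2.

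Imprinted genes showed no common direction, with 8 of 22 higher and 7 lower (5 higher without TBLC replicate 1). These counts stood near the 30.1% higher and 34.8% lower over all tested genes. Beside Cdkn1c and Phlda2, Peg10, a retrotransposon-derived gene, stood at 2106 and 2092 CPM in EPI-T, against 246 and 252 CPM in TBLC (3.08 ± 0.05, adjusted p = 2.8e-17), while Gnas, a G protein subunit, changed by -0.96 ± 0.06. Of 22 germline genes, 11 rose and 5 fell (3 fell without EPI-T replicate 1 or TBLC replicate 2), with the meiotic genes Stag3 and Dmc1 at 2.03 ± 0.09 and 2.19 ± 0.31, Ddx4 at 0.61 ± 0.10, and Dazl, a germ cell RNA-binding protein, at -1.88 ± 0.25.

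Of 19 two-cell genes tested, 10 rose and 1 fell (median 0.87). The fall, Zfp809, was lost with DESeq2 and without EPI-T replicate 2, TBLC replicate 1 or TBLC replicate 2. Zscan4d, of a gene family marking a transient cleavage-like state, stood at 96.7 and 104 CPM in EPI-T, against 41.6 and 42.8 CPM in TBLC and 2.98 and 4.59 CPM in PrE-T. Zscan4b and Zscan4c changed by 1.34 ± 0.13 and 1.14 ± 0.13. Reads shared between Zscan4 copies, and likewise between Usp17l copies, make the level of each copy uncertain.

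Cell cycle genes rose nearly throughout. Of 29 G1/S and replication genes, 26 rose and 2 fell (median 1.05), beside 30.1% higher among all tested genes. Ccne1, cyclin E1 of the G1/S transition, stood at 366 and 364 CPM in EPI-T, against 68.9 and 78.3 CPM in TBLC (2.31 ± 0.06, adjusted p = 9.5e-15). Rrm2, the ribonucleotide reductase subunit that limits nucleotide supply, stood at 593 and 569 CPM in EPI-T, against 159 and 163 CPM in TBLC, and Mcm3, of the replicative helicase, stood at 671 and 666 CPM in EPI-T, against 221 and 222 CPM in TBLC. The 2 falls were the D-type cyclins Ccnd2 (-2.98 ± 0.10) and Ccnd1 (-1.43). Of 25 mitosis genes, 24 rose and 1 fell (median 0.79), led by Bub1 (1.85 ± 0.07), Ccnb2 (1.77 ± 0.07), Kif23 (1.49 ± 0.06) and Bub1b (1.41 ± 0.06), which act in the spindle checkpoint, mitotic entry and cytokinesis. The fall was Cdc25b, a mitotic phosphatase, and it was lost with DESeq2 and without EPI-T replicate 2 or TBLC replicate 2.

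Of 25 p53 target genes, 19 fell and 1 rose (median -0.74), beside 34.8% lower among all tested genes. Cdkn1a, the kinase inhibitor p21, stood at 21.9 and 18.8 CPM in EPI-T, against 163 and 159 CPM in TBLC (-2.98 ± 0.09, adjusted p = 3.7e-14). Mdm2, the ligase that degrades p53, stood at 228 and 237 CPM in EPI-T, against 614 and 622 CPM in TBLC. Ccng1, Plk2 and Btg2 changed by -1.46 ± 0.05, -1.67 ± 0.08 and -1.39 ± 0.08. The rise was Plk3 (1.27 ± 0.16), at 41.2 and 44.6 CPM in EPI-T, against 14.2 and 21.4 CPM in TBLC, and a second rise appeared without EPI-T replicate 2 or TBLC replicate 1. Of 7 CDK inhibitors, 4 fell and only Cdkn1c rose: Cdkn2b (p15) changed by -3.37 ± 0.20 and Cdkn2a (p16 and p19) by -1.13 ± 0.12.

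E2F factors are known to drive G1/S genes through their promoters, so the promoters of that list were searched for an E2F site, TTTNGCGC, on both strands. Promoters were taken from RefSeq, build GRCm38.p6, as 250 bases before to 50 after each gene's start. Of 22 list members with a promoter, 8 held the site (36.4%), against 1.57% of 27025 genes with a promoter, and 7 of the 8 rose, as did 26 of all 29 members. Mcm5 and Mcm6, of the replicative helicase, are shown because they hold more than 1 match and both rose, Mcm5 by 1.27 ± 0.05. Capitals mark the matches, some of which overlap each other, at chr8:75109259-75109558 on the plus strand for Mcm5 and chr1:128359656-128359955 on the minus strand for Mcm6.
Mcm5: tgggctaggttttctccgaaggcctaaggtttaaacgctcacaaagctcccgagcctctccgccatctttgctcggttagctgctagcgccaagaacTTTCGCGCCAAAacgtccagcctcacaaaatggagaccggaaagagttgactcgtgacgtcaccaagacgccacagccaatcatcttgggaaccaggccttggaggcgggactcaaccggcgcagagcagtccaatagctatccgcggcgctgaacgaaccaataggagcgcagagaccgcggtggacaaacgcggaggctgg
Mcm6: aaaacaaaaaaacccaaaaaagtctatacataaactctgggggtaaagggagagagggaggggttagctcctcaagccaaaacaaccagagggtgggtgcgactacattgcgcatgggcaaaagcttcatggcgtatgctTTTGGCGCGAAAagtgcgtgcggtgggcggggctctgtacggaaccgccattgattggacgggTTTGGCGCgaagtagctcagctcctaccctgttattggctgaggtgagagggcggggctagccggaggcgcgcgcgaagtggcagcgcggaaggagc

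All 20 ribosome biogenesis genes rose (median 0.78). Myc, which drives ribosome production, stood at 114 and 108 CPM in EPI-T, against 26.2 and 26.8 CPM in TBLC (2.06 ± 0.08, adjusted p = 1.3e-12), and Ncl and Npm1, the main nucleolar proteins, changed by 0.84 ± 0.04 and 0.98 ± 0.04.

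Of 21 glycolysis genes, 18 rose and 2 fell (median 1.38). Slc2a1, the glucose transporter GLUT1, stood at 467 and 458 CPM in EPI-T, against 80.6 and 83.5 CPM in TBLC (2.50 ± 0.06, adjusted p = 7.7e-16). Slc16a3, the lactate exporter named above, stood at 86.4 and 91.8 CPM in EPI-T, against 6.96 and 6.63 CPM in TBLC. Pdk1, a kinase that inhibits pyruvate dehydrogenase, and Pfkl, a phosphofructokinase, changed by 2.08 ± 0.06 and 2.06 ± 0.06. The falls were Hk1 and Pfkfb4. Of 14 hypoxia genes, 11 rose and 2 fell (median 0.74); the procollagen hydroxylase P4ha2 changed by -2.21 ± 0.07, and the other fall, Kdm3a, was lost with DESeq2 and without EPI-T replicate 1, EPI-T replicate 2 or TBLC replicate 2.

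The hypoxia response core ACGTG, the letters bound by hypoxia-inducible factors, stood on either strand in 13 of 20 glycolysis promoters (65%), against 21.8% of all genes with a promoter, and 11 of the 13 rose, as did 18 of all 21 members. Slc2a1 and Slc16a3 are shown as the members with the lowest p among those that hold it, with the core in capitals, at chr4:119108495-119108794 and chr11:120948817-120949116, both on the plus strand.
Slc2a1: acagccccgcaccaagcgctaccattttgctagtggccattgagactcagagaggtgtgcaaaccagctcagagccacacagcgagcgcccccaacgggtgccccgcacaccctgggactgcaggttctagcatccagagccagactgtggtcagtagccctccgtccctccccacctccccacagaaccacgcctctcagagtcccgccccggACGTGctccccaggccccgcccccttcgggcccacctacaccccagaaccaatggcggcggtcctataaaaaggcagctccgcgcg
Slc16a3: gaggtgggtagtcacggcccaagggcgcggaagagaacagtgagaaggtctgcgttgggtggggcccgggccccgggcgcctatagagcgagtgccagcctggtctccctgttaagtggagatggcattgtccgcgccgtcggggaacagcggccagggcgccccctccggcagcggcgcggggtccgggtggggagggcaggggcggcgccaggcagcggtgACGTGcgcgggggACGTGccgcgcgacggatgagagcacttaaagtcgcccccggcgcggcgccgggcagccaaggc

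Of 24 cholesterol synthesis genes, 20 rose and 4 did not pass (median 1.06; 1 fell with library totals or without EPI-T replicate 1). Idi1, an isomerase of isoprenoid synthesis, stood at 166 and 171 CPM in EPI-T, against 40.4 and 37.0 CPM in TBLC (2.12 ± 0.07, adjusted p = 1.0e-13). Hmgcs1, an early synthase of the pathway, stood at 368 and 327 CPM in EPI-T, against 147 and 148 CPM in TBLC (1.23 ± 0.06). No EPI-T library overlapped a TBLC library in either gene.

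Sterol genes are known to be activated by SREBP factors, with NF-Y at CCAAT boxes. The sterol regulatory element TCACNCCAC stood in 1 of 17 list promoters, that of Hmgcs1, against 1.44% of all genes with a promoter. A CCAAT box stood in 16 of the 17 (94.1%), against 41.1% of all genes, and 13 of the 16 rose, as did 20 of all 24 members. Hmgcs1 is shown with the sterol element in capitals, at chr13:119690101-119690400 on the plus strand, and Msmo1, a sterol demethylase that changed by 1.16, with its CCAAT boxes in capitals, at chr8:64733529-64733828 on the minus strand.
Hmgcs1: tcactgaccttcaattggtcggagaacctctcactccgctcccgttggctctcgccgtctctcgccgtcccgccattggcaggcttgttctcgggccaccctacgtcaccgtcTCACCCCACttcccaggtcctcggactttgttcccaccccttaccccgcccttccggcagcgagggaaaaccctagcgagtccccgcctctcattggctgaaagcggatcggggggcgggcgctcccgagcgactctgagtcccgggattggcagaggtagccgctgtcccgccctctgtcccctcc
Msmo1: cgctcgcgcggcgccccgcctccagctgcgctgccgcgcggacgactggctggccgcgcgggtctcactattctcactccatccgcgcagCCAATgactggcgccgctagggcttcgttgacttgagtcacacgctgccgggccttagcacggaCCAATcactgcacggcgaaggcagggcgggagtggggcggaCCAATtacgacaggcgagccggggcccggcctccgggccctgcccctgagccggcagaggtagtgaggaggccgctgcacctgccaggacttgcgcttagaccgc

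Lysosomal genes fell, 25 of 28, with 2 higher (median -1.19). Ctsd, cathepsin D, stood at 52.1 and 47.2 CPM in EPI-T, against 338 and 334 CPM in TBLC (-2.76 ± 0.06, adjusted p = 1.1e-15). Ctsl, cathepsin L, stood at 360 and 366 CPM in EPI-T, against 1802 and 1825 CPM in TBLC and 9692 and 8920 CPM in PrE-T, and Cd63 and Ctsb changed by -2.86 ± 0.07 and -2.41 ± 0.06. The rises were Tfeb and Tfe3, transcription factors of lysosomal genes, of which 1 rose without EPI-T replicate 2, TBLC replicate 1 or TBLC replicate 2, and neither with library totals.

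Of 13 mitochondrial-encoded genes, 10 fell and 3 did not pass (median -0.93; 1 rose without EPI-T replicate 2). mt-Cytb, of complex III, stood at 1885 and 1666 CPM in EPI-T, against 4146 and 3700 CPM in TBLC (-1.14 ± 0.06), and mt-Nd4, of complex I, changed by -1.29 ± 0.05. mt-Co1 did not pass, with 5464 and 4754 CPM in EPI-T, against 5109 and 4901 CPM in TBLC. Of 25 nuclear respiratory chain genes, 13 rose and 4 fell (median 0.25; 2 fell without EPI-T replicate 1 or TBLC replicate 1, 8 with library totals), from Atp5a1 at 1.00 ± 0.06 to Cox4i1 at -0.55 ± 0.05.

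The amino acid and stress response genes driven by ATF4 went both ways, with 11 of 31 higher and 15 lower (median -0.17). Over all tested genes, 30.1% were higher and 34.8% lower. With library totals 6 of the list were higher. Ddit3, the stress factor CHOP, stood at 7.95 and 8.69 CPM in EPI-T, against 90.6 and 89.2 CPM in TBLC (-3.44 ± 0.13), and Asns, asparagine synthetase, stood at 112 and 112 CPM in EPI-T, against 266 and 273 CPM in TBLC (-1.27 ± 0.06). Nupr1, a stress-induced chromatin protein, changed by -2.53 ± 0.11, while the one-carbon enzymes Shmt2 and Mthfd2 rose by 1.07 and 0.89. The ATF4 element TGATGNAA stood on either strand in 9 of 27 list promoters (33.3%), against 4.51% of all genes, and 2 of the 9 rose, as did 11 of all 31 members. Asns and Slc7a11 are shown as falling genes that hold it, in capitals, at chr6:7693160-7693459 and chr3:50443564-50443863, both on the minus strand.
Asns: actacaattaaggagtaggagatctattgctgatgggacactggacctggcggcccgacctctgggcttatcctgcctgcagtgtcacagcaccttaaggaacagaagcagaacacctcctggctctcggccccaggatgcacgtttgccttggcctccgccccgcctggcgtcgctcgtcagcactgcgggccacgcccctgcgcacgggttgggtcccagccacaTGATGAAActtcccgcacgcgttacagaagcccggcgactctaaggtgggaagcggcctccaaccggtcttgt
Slc7a11: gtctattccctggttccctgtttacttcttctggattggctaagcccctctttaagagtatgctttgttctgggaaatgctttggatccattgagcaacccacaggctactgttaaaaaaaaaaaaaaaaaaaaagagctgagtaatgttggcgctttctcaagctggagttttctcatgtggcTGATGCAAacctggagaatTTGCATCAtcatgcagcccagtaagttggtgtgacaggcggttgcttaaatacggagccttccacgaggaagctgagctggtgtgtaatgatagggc

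Of 15 NRF2 and redox genes, 11 fell and 3 rose (median -0.42). Nqo1, a quinone reductase, stood at 24.6 and 23.0 CPM in EPI-T, against 74.3 and 68.9 CPM in TBLC (-1.59 ± 0.14), and Hmox1, heme oxygenase, changed by -0.74 ± 0.06. On library totals, 9 of the 11 falls lay below every TBLC library, but Hmox1 lay above all TBLC libraries of other tables. The list sum was 4696 to 4986 CPM in EPI-T, against 5141 to 5241 CPM in TBLC of its table. In TBLC of the other tables it was 2869 to 3357 CPM. Of 24 interferon and antigen presentation genes tested, 13 fell and 3 rose (median -1.87; 8 fell without TBLC replicate 2, 1 rose without EPI-T replicate 2 or with library totals). B2m, the light chain of MHC class I, stood at 9.43 and 10.9 CPM in EPI-T, against 219 and 225 CPM in TBLC (-4.45 ± 0.09, adjusted p = 1.8e-16), and the heavy chain H2-D1 and the transporter Tap1 changed by -3.10 ± 0.11 and -1.66 ± 0.18. H2-K1, another heavy chain, went the other way (1.21 ± 0.17), and reads shared between MHC genes make single copies uncertain.

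Of 18 genes of the m6A pathway, 8 rose and 1 fell (median 0.17; with library totals -0.04 and 5 lower; the fall, Rbm15b, was lost without EPI-T replicate 2 or TBLC replicate 2). Mettl3, the catalytic subunit of the m6A writer, did not pass, with 17.5 and 21.9 CPM in EPI-T, against 17.7 and 16.5 CPM in TBLC (0.20 ± 0.14, adjusted p = 0.22), and its groups overlapped. Without EPI-T replicate 1 it was called at 0.36. Its partner Mettl14 changed by 0.72 ± 0.09. The scaffold Virma stood at 92.9 and 89.2 CPM in EPI-T, against 97.9 and 97.3 CPM in TBLC (-0.10 ± 0.07, adjusted p = 0.19), and with library totals it was called at -0.31. Among readers, Igf2bp3 stood at 44.0 and 41.1 CPM in EPI-T, against 23.6 and 19.2 CPM in TBLC (0.99 ± 0.11), Igf2bp1 changed by 0.75 ± 0.05, Ythdf1 by 0.72 ± 0.06, and Ythdf2, which directs marked RNA to decay, by 0.40 ± 0.06 with 227 and 224 CPM in EPI-T, against 170 and 173 CPM in TBLC.

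Of 25 spliceosome genes, 20 rose and 1 fell (median 0.43), from Snrpd1, an Sm protein (0.79 ± 0.06), and Prpf8, the catalytic core scaffold (0.69 ± 0.05), to the single fall of Sf3b3, a subunit of the SF3b complex, which stood at 531 and 533 CPM in EPI-T, against 802 and 815 CPM in TBLC (-0.60 ± 0.05). Of 19 SR and CLK genes, 12 rose and 1 fell (median 0.32), with Srsf10 at 0.91 ± 0.06. On library totals, 3 of the 12 lay above every TBLC library, and 4 lay below all TBLC libraries of other tables. The SR and CLK sum was 4216 to 4300 CPM in EPI-T, against 3697 to 3709 CPM in TBLC of its table. In TBLC of the other tables it was 4341 to 5933 CPM. With library totals 3 spliceosome and 4 SR and CLK genes fell.

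The same fit set EPI-T against PrE-T, and because EPI-T takes part in both comparisons their values are only given side by side. Nanog stood at 14.8 CPM in both PrE-T libraries and changed by 3.72 ± 0.08 in EPI-T over PrE-T, and Sox2 by 3.56. Gata4 stood at 561 and 549 CPM in PrE-T, a change of -7.50 in EPI-T over PrE-T, so its level in TBLC lay between the sorted fractions. Dnmt3b was higher in PrE-T (861 and 870 CPM) than in EPI-T, a change of -1.42, although both were above TBLC. Summed list levels went both ways. The formative sum was 1913 and 1844 CPM in PrE-T, against 1365 and 1415 CPM in EPI-T. Cholesterol synthesis, hypoxia and glycolysis sums were higher in PrE-T too. The G1/S sum was 4238 and 4405 CPM in PrE-T, against 7004 and 7016 CPM in EPI-T. Pluripotency core and DNA methylation sums were also higher in EPI-T. Among the p53 targets, Mdm2 stood at 230 and 218 CPM in PrE-T, next to its EPI-T level (0.05, adjusted p = 0.41); with library totals it was called at 0.16.

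Since 1 TBLC culture served as the comparison, the EPI-T levels were also set beside TBLC from 3 other tables: TBLC at 0 h of an actinomycin D course, TBLC_Ctrl at 0 h of another, and TBLC2, each with 2 libraries. These tables were made separately, so levels are CPM on library totals, with no test. Of 1330 genes higher in EPI-T by at least 2-fold, 883 (66.4%) lay above all 8 TBLC libraries, and of 2841 lower by at least 2-fold, 2439 (85.9%) lay below all 8. Over all 14372 tested genes found in each table, the shares were 13.8% above and 35.0% below. The 8 include the 2 TBLC libraries that served for the calls. Against the libraries of other tables alone, 2550 of the 14372 lay above and 6051 below. The 2-fold counts were again 883 and 2439 there, while 32 of the 2-fold rises lay below those libraries and 7 of the 2-fold falls above.

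The pluripotency core depended on the culture. Its summed level was 2957 and 2870 CPM in EPI-T, against 1446 and 1462 CPM in the TBLC libraries of its own table and 2390 to 3632 CPM in the other 6 TBLC libraries. Nanog stood at 201 and 180 CPM in EPI-T, against 125 and 119 CPM in TBLC of its table and 237 to 575 CPM in the others. Pou5f1 stood at 576 and 583 CPM in EPI-T, against 488 and 516 CPM in TBLC of its table and 726 to 1232 CPM in the others, and Sox2 showed the same order. These 3 genes were thus above one TBLC culture and below 3. Tdgf1, at 1122 and 1073 CPM in EPI-T, lay above all 8 TBLC libraries, which ranged up to 631 CPM. The naive sum was 3668 to 3762 CPM in EPI-T, against 3575 to 3579 CPM in TBLC of its table. In the other 6 TBLC libraries it was 4971 to 6686 CPM, so EPI-T lay below all of those.

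Other lists stood outside the range of every TBLC library. The DNA methylation, G1/S, mitosis, ribosome biogenesis, cholesterol synthesis, formative, polycomb and imprinted sums lay above all 8. The fibroblast, p53 target, lysosome, interferon, primitive endoderm and mitochondrial-encoded sums lay below all 8. Single members did not all follow their sum. Of the 10 mitochondrial-encoded falls, 5 lay below all 8, and 2 lay above all TBLC libraries of other tables. Both lysosomal rises lay below all TBLC libraries of other tables. Peg10 alone made up 2058 and 2041 CPM of the imprinted sum of 3066 and 3031 CPM in EPI-T, against 278 and 284 CPM of 1468 and 1484 CPM in TBLC. The DNA methylation sum was 5436 to 5439 CPM in EPI-T, against 3105 to 4000 CPM in the 8 TBLC libraries. The glycolysis sum lay within the range: 10858 to 10864 CPM in EPI-T, against 5174 to 5351 CPM in TBLC of its table and 7659 to 15830 CPM in the others. In all, 12 of the 36 list sums were above, 11 below and 13 within.

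**Figure D4:**
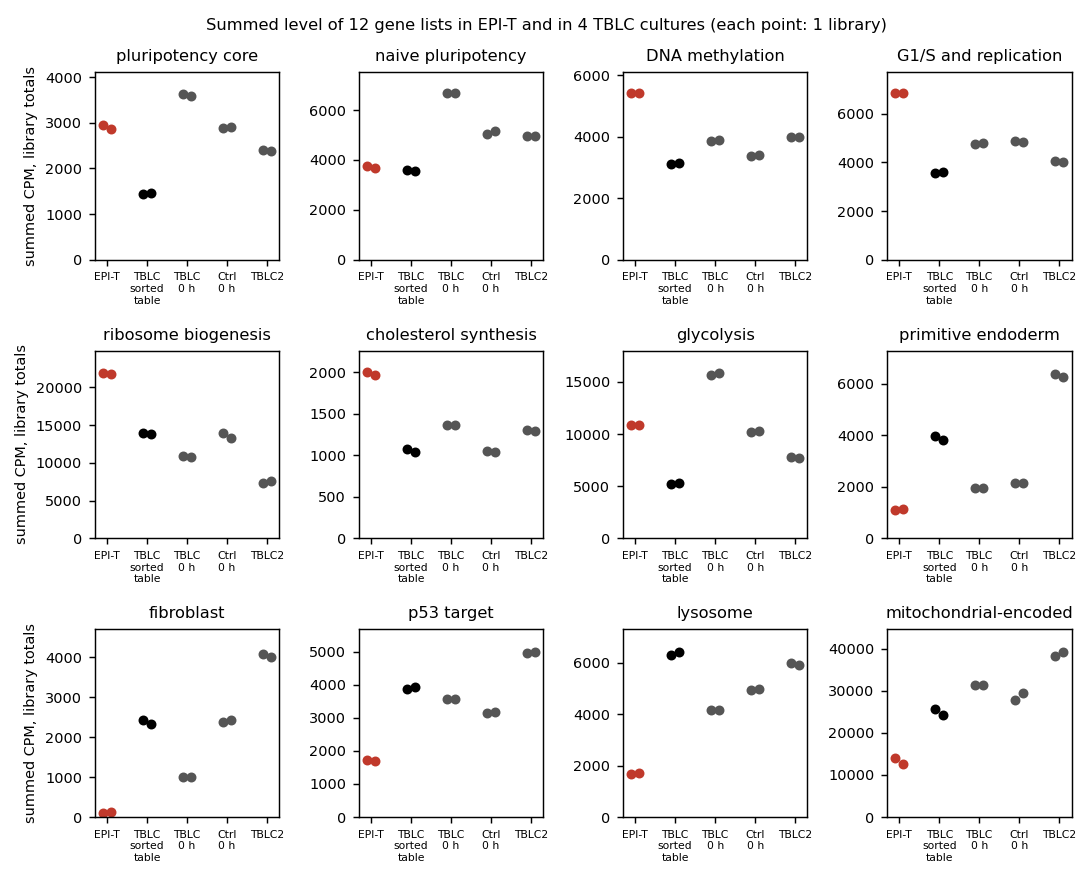
Summed CPM on library totals (vertical axes, starting at 0) of 12 gene lists, each point 1 library, with EPI-T at the left, then TBLC of the same table, TBLC at 0 h, TBLC_Ctrl at 0 h and TBLC2. The pluripotency core sum of TBLC in the sorted table is the lowest of the 4 TBLC cultures, while the DNA methylation sum of EPI-T at about 5436 CPM lies above all of them and its fibroblast sum at 112 to 114 CPM below all.

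Unsorted cells gave a comparison that shares no library with this one: diffTBLC after 3 days in SLM against TBLC, both at 0 h of actinomycin D. There 11927 of 14463 genes passed (82.5%), with 42.8% of the tested genes higher and 39.7% lower. Of 13940 genes tested in both comparisons, 2791 were higher in both, which is 65.1% of those higher in EPI-T and 46.0% of those higher in diffTBLC, and 2740 were lower in both (56.3% and 49.5%). Another 1041 were higher in EPI-T and lower in diffTBLC, and 1394 the other way round. The changes correlated across genes at r = 0.40 (Spearman 0.41), a description, since genes are not independent replicates.

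Lists differed in how the comparisons lined up. Over all 13940 genes tested in both, 2791 were higher in both and 2740 lower in both, while 1041 and 1394 passed in opposite directions. Of 29 G1/S genes, 26 passed in one direction in both, and so did 20 of 24 cholesterol, 18 of 20 ribosome biogenesis and 18 of 22 fibroblast genes. Of 22 primitive endoderm genes, 21 passed in opposite directions and none in one direction in both, with a median of -2.91 in EPI-T and 3.72 in diffTBLC, where the CD140+ cells were not removed. Lysosomal genes were also divided, with 16 of 28 in opposite directions, and 9 of 19 two-cell genes. Nanog and Sox2 changed by -1.19 and -0.62 in diffTBLC, against 0.85 and 0.60 in EPI-T, each relative to the TBLC of its own table.

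**Figure D5:**
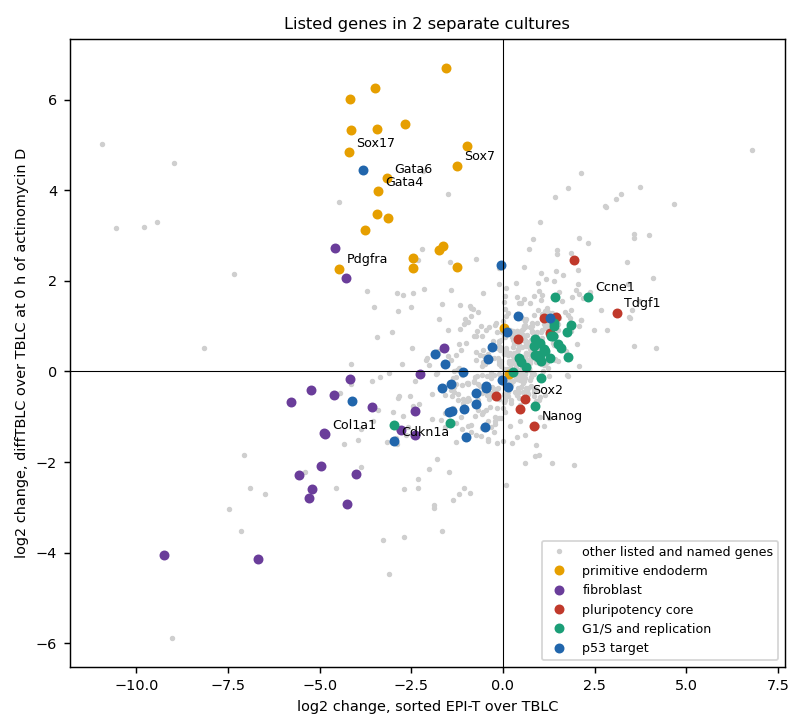
Log2 change of EPI-T over TBLC (horizontal axis) against log2 change of unsorted diffTBLC over TBLC at 0 h (vertical axis) for listed and named genes, with 5 lists in colour. Primitive endoderm genes lie at the upper left, with medians of -2.91 and 3.72, and G1/S genes at the upper right.

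An earlier point of the move was TBLC_PlaB- with 8 h in SLM against TBLC_Ctrl, both at 0 h of actinomycin D. The columns taken as TBLC_PlaB- carry another name (TBLC_S); they were assigned only because the labels put TBLC_Ctrl and TBLC_PlaB- in that table and TBLC_Ctrl has columns of its own, so the values hold only if that is right. The comparison gave 177 genes of 14107 (1.25%), 110 of them higher (0.78%) and 67 lower (0.475%), and 4 passed at 2-fold or more (0.0284%). Sall4 and Dppa2 of the pluripotency core passed there, with changes of 0.12 and 0.19, and Gata4, Gata6, Sox17 and Sox7 did not. Without TBLC_Ctrl replicate 2 the count was 70, and without TBLC_PlaB- replicate 1 or 2 it was 117 or 73.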

How the data were processed

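RNA-seq counts per gene were analysed as the authors deposited them, as whole-number counts with no normalization. Per the submitters' processing notes, the build was mm39, and the named tools included STAR 2.7.11b, FastQC 0.12.1, Subread, Trim Galore and DESeq2; the strand setting of the counting is not given in the sources used here, so reads of overlapping antisense genes cannot be told apart. Genes were kept by edgeR's filterByExpr (edgeR 4.0.16, R 4.3.3), scaled by TMM and tested with the quasi-likelihood F test over the 6 EPI-T, TBLC and PrE-T libraries, with Benjamini-Hochberg adjustment over all genes tested and a threshold of 0.05. Other tables were fitted separately in the same way. The gene lists, members and named genes were chosen with earlier results of these data known. Named genes were the study's anchors, the 12 largest rises and 12 largest falls among genes averaging a log2 CPM of 3 or more, the lowest-p members per list (at most 4), and members that hold a promoter motif; further members named for a role in their list were chosen after their values were seen. Where 1 group had no counts, folds are bounds at a floor of 3 counts over the group; intervals and floors cover counting error only. Alternatives were scaling by library totals or RLE, DESeq2 1.42.0, no filter, only the libraries compared, a replicate block and leaving out each library. The fit was tested on simulated data with 200 changed genes. Promoters are RefSeq sequences of build GRCm38.p6, matched by symbol. A planned description of gene length and position was not run, because no mm39 annotation was used here. Some members of the lists are counted but not reported by name here.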

Additional observations from a re-analysis of the deposited data

Results flagged for a closer look

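Of the anchor genes, 8 passed the threshold in opposite directions in EPI-T over TBLC and in unsorted diffTBLC over TBLC at 0 h. The difference between the comparisons was not tested. In EPI-T the log2 changes were -3.16 for Gata6, -3.41 for Gata4, -4.19 for Sox17, -1.26 for Sox7 and -4.46 for Pdgfra, and in diffTBLC they were 4.26, 3.98, 4.84, 4.55 and 2.27. Pdgfra encodes the antigen that EPI-T cells were sorted against. Nanog and Sox2 changed by 0.85 and 0.60 in EPI-T and by -1.19 and -0.62 in diffTBLC. Each comparison had its own TBLC libraries as reference. On library totals, Nanog and Sox2 in EPI-T lay below all TBLC libraries of other tables, so their direction depended on the TBLC used. Ythdf2, an m6A reader, changed by 0.40 in EPI-T and by -0.12 in diffTBLC.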

How the results depend on the processing

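With 2 libraries a group, precision rests on the spread pooled over the table. Leaving out 1 library gave 8189 to 9507 genes past the threshold in EPI-T against TBLC, 3845 to 4459 higher and 4344 to 5079 lower, with 1231 to 1370 higher and 2583 to 2906 lower by at least 2-fold. With library totals 883 were higher by at least 2-fold, 33.5% of called genes were higher in place of 46.4%, and the median of all genes was -0.28; for diffTBLC 40.6% of called genes were higher in place of 51.8%. Leaving out 1 library moved the medians of 13 of the 36 lists past a set margin, and library totals moved 35. As libraries were left out, the BMP median ran from -1.32 to -0.83, the formative from 0.51 to 0.99 and the interferon from -2.02 to -1.54. The imprinted median was -0.085 without EPI-T replicate 2 and ranged up to 0.24 as other libraries were left out. The m6A median was -0.039 with library totals. The cause was not tested. Of the 163 genes that the naming rule fixed, Mettl3 (0.36 without EPI-T replicate 1) and Virma (-0.31 with library totals) changed their call against TBLC under these alternatives; members outside that rule that lost a call are given with their lists. TBLC_PlaB- against TBLC_Ctrl was least stable. DESeq2 gave 73 genes there, 53 higher and 20 lower, 72.6% higher, with 0 lower by at least 2-fold; only the libraries compared gave 94, 63 higher and 31 lower; no filter gave 48.1% higher; and leaving out 1 library gave 70 to 207 genes, 46 to 131 higher, 22 to 76 lower, 0 to 2 higher by at least 2-fold and 1 to 5 lower by at least 2-fold. The replicate block gave 9243 genes for EPI-T against TBLC, 11937 for diffTBLC and 219 for TBLC_PlaB-, where 1 was higher by at least 2-fold. Deviations of same-numbered EPI-T and TBLC libraries correlated at -0.017, so the numbers were not taken to pair them.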
